A study of Mus musculus with 8 samples.

Results

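The genes described here encode the machinery that makes ribosomes in the nucleolus: subunits and cofactors of RNA polymerase I, core proteins of the small nucleolar ribonucleoproteins (snoRNPs), and assembly factors of both ribosomal subunits. They were a fixed list of 55 symbols, of which 54 had a row in the count table of 21240 genes and 54 passed the filter on low counts. Noc2l was not analysed here. The samples were NMuMG cells, an immortal epithelial line from normal mouse mammary gland, wild type by genotype, grown in serum and insulin to near confluence before treatment. The 4 groups were BRM014 for 30 h, DMSO for 30 h, BRM014 for 6 h and DMSO for 6 h, with 2 libraries labelled as biological replicates in each. BRM014 is an inhibitor of the ATPase activity of BRG1 (Smarca4) and BRM (Smarca2), the motor subunits of the SWI/SNF chromatin remodelling complexes, and DMSO is its solvent. The dose of BRM014 is not given in the sources used here, and no group without solvent or at 0 h was among the samples analysed here. All values come from 1 cell line.

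In the nucleolus, RNA polymerase I transcribes the long precursor of the ribosomal RNAs. Box C/D and box H/ACA snoRNPs guide ribose methylation and pseudouridylation of that precursor, the small subunit processome folds and cleaves its first part into the 40S precursor, and other factors assemble the 60S subunit. Production of ribosomes is among the costliest activities of a growing cell, and MYC is a well known activator of many of these genes. The mRNAs of the protein machinery were measured here, not ribosomal RNA or the rate of ribosome production.

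The 8 libraries held 17859693 to 29955366 counts, and each of the 54 genes had at least 458 counts in every library. The biological coefficient of variation over all genes was 9.30%. Levels are given as CPM (counts per 1000000 counts after scaling by trimmed means), and changes as log2 fold changes ± SE, called at an adjusted p under 0.05 over all 11835 genes tested. The epithelial keratins Krt8 and Krt18 and the adhesion gene Cdh1 were expressed, while Epcam and Cldn3 had no count in any library. Krt7 had at most 9 counts and Cldn4 at most 1 in any library. The sum of the 7 epithelial markers thus came almost wholly from Krt8, Krt18 and Cdh1. That sum was 6780 to 8003 CPM in BRM014 at 30 h and 4356 to 4514 CPM in DMSO at 30 h. At 6 h it was 5259 to 5726 CPM in BRM014 and 5186 to 5647 CPM in DMSO. Markers of immune cells summed to at most 8.06 CPM and those of fibroblasts to at most 2.66 CPM in any library. Smarca4 had 372 and 407 CPM in BRM014 and 359 and 379.7 CPM in DMSO at 30 h. At 6 h, Smarca4 had 442 and 455 CPM in BRM014 and 486 and 434 CPM in DMSO. Smarca2 had 7.92 and 7.04 CPM in BRM014 and 5.92 and 6.48 CPM in DMSO at 30 h. At 6 h, Smarca2 had 3.54 and 2.77 CPM in BRM014 and 3.15 and 2.81 CPM in DMSO. These libraries are bulk RNA, so fewer cells of a kind and less RNA per cell cannot be told apart, and a change is relative to the rest of the library.

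Most of these genes were lower at 30 h than at 6 h under both treatments. Summed over the 54 genes, the level was 8451 and 9491 CPM in BRM014 at 30 h, 8505 and 8430 CPM in DMSO at 30 h, 13938 and 13039 CPM in BRM014 at 6 h, and 14984 and 13486 CPM in DMSO at 6 h. Every 30 h library was below every 6 h library in this sum. As a share of all counts, the 54 genes took 0.845 to 0.972% at 30 h and 1.30 to 1.40% at 6 h.

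**Figure D1:**
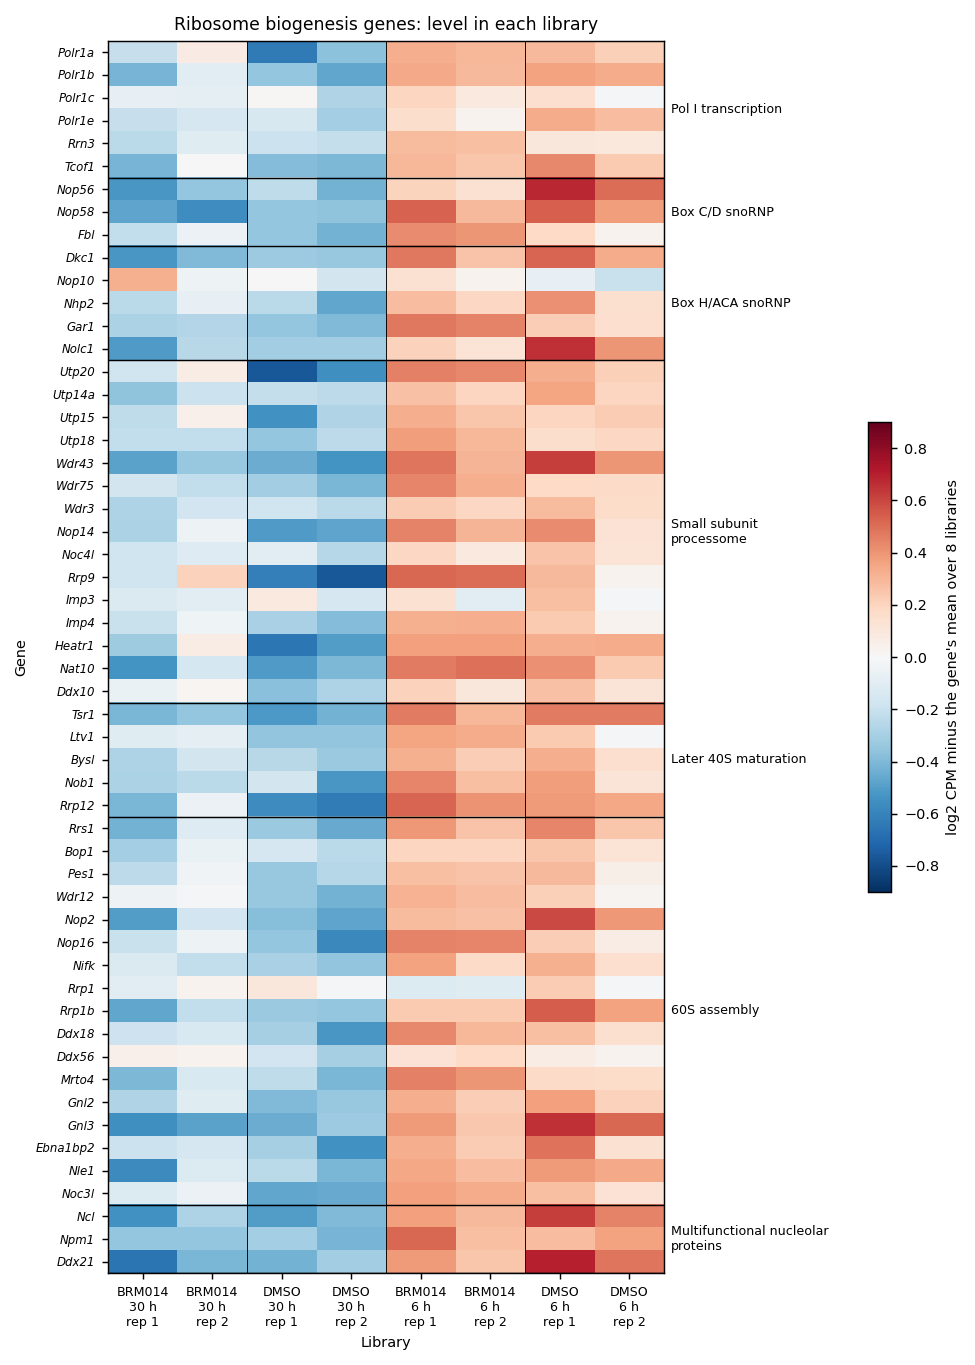
Level of each of the 54 genes (rows, grouped by role) in each of the 8 libraries (columns), as log2 CPM minus the gene's mean over all libraries; red is above that mean and blue below it. The 4 libraries at 30 h are mostly blue and the 4 at 6 h mostly red, with Nop10, Rrp1 and Imp3 as rows of mixed colour.

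In DMSO cells, 50 of the 54 genes were lower at 30 h than at 6 h, 0 were higher and 4 did not pass (Polr1c, Nop10, Imp3 and Rrp1). Among all genes tested, 17.2% were called lower and 18% higher in the same comparison. The median log2 fold change of the 54 was -0.63, a fall of 35.2% in level, against 0.01 over all genes. No gene was higher at an unadjusted p under 0.05 either, or with DESeq2 or limma-voom. The fall reached 1.5-fold in 31 genes and 2-fold in Wdr43 alone. In 50 genes both DMSO libraries at 30 h lay below both at 6 h, a pattern seen in 32.9% of all genes tested.

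In BRM014 cells, 47 of the 54 were lower at 30 h than at 6 h, 0 were higher and 7 did not pass, against 16.9% of all genes called lower and 19.6% called higher. Here too no gene was higher at an unadjusted p under 0.05 or with the other tools. The median was -0.50, a fall of 29.2%, against 0.01 over all genes. Both BRM014 libraries at 30 h lay below both at 6 h in 52 genes, as did 34.9% of all genes. Scaling on the median of the ribosomal protein mRNAs instead of all genes left 17 genes called lower; that scaling moved the median of all genes by 0.22 to the positive side, and the median of the 54 was still 0.51 below it. All 47 were also called lower in DMSO. Polr1e, Ddx10 and Ddx56 passed in DMSO and did not pass in BRM014, but no difference between the 2 falls passed for them.

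**Figure D2:**
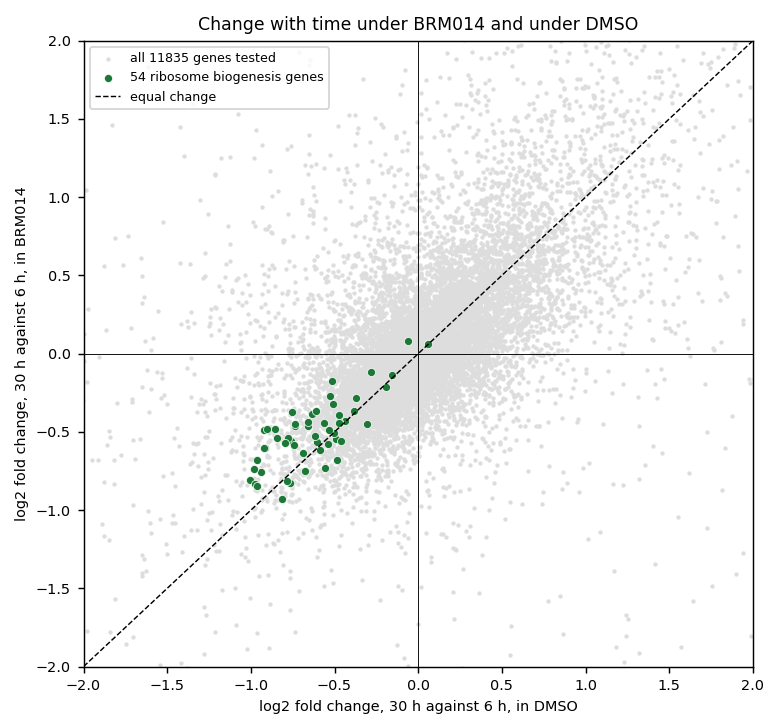
Change between 30 h and 6 h (log2 fold change) in BRM014 cells (vertical axis) against that in DMSO cells (horizontal axis), for the 54 genes (green) and all 11835 genes tested (grey); genes beyond 2 on either axis are not drawn and the dashed line marks equal change. The green points lie, but for Nop10 and Rrp1, in the lower left part, and 41 of the 54 had the less negative change in BRM014. Over all genes, the change was the higher one in BRM014 in 6019 of 11835. The difference between the 2 changes passed in 0 of the 54.

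Of the 6 genes of RNA polymerase I transcription, 4 fell with time in BRM014 and 5 in DMSO. Tcof1, which encodes treacle, a nucleolar cofactor of polymerase I, had 92.6 and 124 CPM in BRM014 and 94.5 and 93.5 CPM in DMSO at 30 h. At 6 h, Tcof1 had 152 and 147 CPM in BRM014 and 167 and 146 CPM in DMSO. Its 30 h libraries all lay below its 6 h libraries, with a change of -0.46 ± 0.12 (adjusted p = 0.0107) in BRM014 and -0.74 ± 0.13 (adjusted p = 0.000797) in DMSO. Rrn3, the initiation factor that brings the polymerase to its promoter, had 105 and 115 CPM in BRM014 and 108 and 106 CPM in DMSO at 30 h. At 6 h, Rrn3 had 151 and 149 CPM in BRM014 and 133 and 132 CPM in DMSO. The fall of Rrn3 was -0.45 ± 0.09 (adjusted p = 0.00185) in BRM014 and -0.30 ± 0.09 (adjusted p = 0.0191) in DMSO. Polr1e, the PAF53 subunit, had 32.0 and 33.4 CPM in BRM014 and 33.6 and 30.0 CPM in DMSO at 30 h. At 6 h, Polr1e had 41.4 and 37.8 CPM in BRM014 and 46.8 and 44.9 CPM in DMSO. The difference of Polr1e between the times was -0.27 ± 0.11 (adjusted p = 0.0693) in BRM014, which did not pass, and -0.53 ± 0.11 (adjusted p = 0.00287) in DMSO, which did. Polr1c, a subunit shared with RNA polymerase III, had a change of -0.21 ± 0.11 (adjusted p = 0.145) in BRM014 and -0.20 ± 0.11 (adjusted p = 0.182) in DMSO.

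All 3 core proteins of the box C/D snoRNP fell with time under either treatment. Nop58, a scaffold protein of the particle, had 288 and 272 CPM in BRM014 and 314 and 310.5 CPM in DMSO at 30 h. At 6 h, Nop58 had 577 and 489 CPM in BRM014 and 581 and 518 CPM in DMSO. Its groups at 30 h and at 6 h were far apart, with changes of -0.93 ± 0.10 (adjusted p = 3.42e-05) in BRM014 and -0.82 ± 0.10 (adjusted p = 0.00011) in DMSO. For Nop56, the other scaffold protein, the changes were -0.60 ± 0.10 (adjusted p = 0.000829) in BRM014 and -0.92 ± 0.11 (adjusted p = 5.98e-05) in DMSO. Fbl (fibrillarin), the methyltransferase of the particle, changed by -0.55 ± 0.10 (adjusted p = 0.00152) in BRM014 and -0.49 ± 0.11 (adjusted p = 0.0034) in DMSO.

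Among the 5 box H/ACA genes, 4 fell in each treatment. Nhp2, a core protein, had 174 and 195 CPM in BRM014 and 174 and 149 CPM in DMSO at 30 h. At 6 h, Nhp2 had 249 and 234 CPM in BRM014 and 274 and 228 CPM in DMSO. Between the times, Nhp2 changed by -0.39 ± 0.11 (adjusted p = 0.0175) in BRM014 and -0.64 ± 0.11 (adjusted p = 0.00113) in DMSO. Dkc1 (dyskerin), the pseudouridine synthase, changed by -0.83 ± 0.11 (adjusted p = 9.64e-05) in BRM014 and -0.77 ± 0.11 (adjusted p = 0.000194) in DMSO. Nolc1, a chaperone of snoRNPs, had falls of -0.54 ± 0.11 (adjusted p = 0.00229) in BRM014 and -0.84 ± 0.11 (adjusted p = 0.000147) in DMSO. Nop10, the smallest core protein, did not pass, with 171 and 133 CPM in BRM014 and 137 and 123 CPM in DMSO at 30 h. At 6 h, Nop10 had 151 and 140.3 CPM in BRM014 and 130.2 and 119.5 CPM in DMSO. The times overlapped for Nop10 in both treatments, and its change was 0.06 ± 0.12 (adjusted p = 0.731) in BRM014 and 0.06 ± 0.12 (adjusted p = 0.748) in DMSO.

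The small subunit processome was the second largest group, and 13 of its 15 genes fell with time in BRM014 and 14 in DMSO. Wdr43, a processome subunit (UTP5 in yeast), had 150.0 and 165 CPM in BRM014 and 153 and 144 CPM in DMSO at 30 h. At 6 h, Wdr43 had 293 and 259 CPM in BRM014 and 321 and 276 CPM in DMSO. All of its 30 h libraries were below all of its 6 h libraries, and the change was -0.81 ± 0.11 (adjusted p = 0.00012) in BRM014 and -1.01 ± 0.11 (adjusted p = 3.55e-05) in DMSO. Wdr75, of the same subcomplex, had 123 and 118 CPM in BRM014 and 110.4 and 103 CPM in DMSO at 30 h. At 6 h, Wdr75 had 186 and 172 CPM in BRM014 and 155 and 155 CPM in DMSO. Its change with time was -0.58 ± 0.09 (adjusted p = 0.000409) in BRM014 and -0.54 ± 0.09 (adjusted p = 0.000743) in DMSO. Nat10, the acetyltransferase of 18S ribosomal RNA, changed by -0.81 ± 0.12 (adjusted p = 0.000258) in BRM014 and -0.78 ± 0.12 (adjusted p = 0.000406) in DMSO. Imp3, a protein of the U3 snoRNP, passed in neither treatment, with -0.14 ± 0.12 (adjusted p = 0.399) in BRM014 and -0.16 ± 0.12 (adjusted p = 0.333) in DMSO. In the remaining genes not described further on, the changes in BRM014 were -0.50 ± 0.10 for Utp14a, -0.56 ± 0.09 for Utp18, -0.43 ± 0.09 for Wdr3, -0.28 ± 0.10 for Noc4l (the partner of Nop14) and -0.44 ± 0.10 for Imp4, and those in DMSO -0.50 ± 0.10, -0.46 ± 0.09, -0.44 ± 0.09, -0.37 ± 0.10 and -0.47 ± 0.10 in the same order, all of them called.

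Later steps of 40S maturation were covered by 5 genes, and all 5 fell in both treatments. Tsr1, a factor that blocks premature binding of translation factors to the maturing 40S subunit, had 139 and 146 CPM in BRM014 and 129.9 and 138 CPM in DMSO at 30 h. At 6 h, Tsr1 had 256 and 228 CPM in BRM014 and 257 and 257 CPM in DMSO. Its level at 30 h was below that at 6 h in every library, with -0.76 ± 0.09 (adjusted p = 7.4e-05) in BRM014 and -0.94 ± 0.09 (adjusted p = 2.38e-05) in DMSO. In the GENCODE M21 annotation, 32.3% of the exonic bases of Tsr1 overlap exons of Srr on the other strand, and the strand setting of the counting is not given in the sources used here. Ltv1, a factor of late 40S maturation, had 105 and 106 CPM in BRM014 and 88.5 and 88.4 CPM in DMSO at 30 h. At 6 h, Ltv1 had 145 and 142 CPM in BRM014 and 133 and 112 CPM in DMSO. The change of Ltv1 with time was -0.44 ± 0.10 (adjusted p = 0.00368) in BRM014 and -0.47 ± 0.10 (adjusted p = 0.00296) in DMSO. Nob1, the nuclease that makes the end of mature 18S ribosomal RNA, changed by -0.62 ± 0.13 (adjusted p = 0.00261) in BRM014 and -0.59 ± 0.13 (adjusted p = 0.00399) in DMSO. Bysl, another factor of 40S maturation, changed by -0.49 ± 0.10 (adjusted p = 0.00213) in BRM014 and -0.53 ± 0.10 (adjusted p = 0.00145) in DMSO.

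Of the 17 genes of 60S assembly tested, 15 fell in BRM014 and 16 in DMSO. Gnl3 (nucleostemin), a nucleolar GTPase, had 132 and 139.5 CPM in BRM014 and 142 and 155 CPM in DMSO at 30 h. At 6 h, Gnl3 had 254 and 230.3 CPM in BRM014 and 306 and 279 CPM in DMSO. The 30 h and 6 h libraries of Gnl3 did not overlap, with changes of -0.83 ± 0.10 (adjusted p = 5.2e-05) in BRM014 and -0.97 ± 0.10 (adjusted p = 2.38e-05) in DMSO. Nop2, a methyltransferase of 28S ribosomal RNA, had 181 and 227 CPM in BRM014 and 196 and 184 CPM in DMSO at 30 h. At 6 h, Nop2 had 312 and 307 CPM in BRM014 and 385 and 335 CPM in DMSO. The change of Nop2 with time was -0.60 ± 0.11 (adjusted p = 0.00147) in BRM014 and -0.92 ± 0.11 (adjusted p = 0.000109) in DMSO. The PeBoW complex is made of Pes1, Bop1 and Wdr12, and each was lower at 30 h in both treatments, with changes of -0.39 ± 0.10, -0.37 ± 0.10 and -0.32 ± 0.10 on the log2 scale in BRM014 and of -0.47 ± 0.11, -0.39 ± 0.10 and -0.51 ± 0.10 in DMSO. Rrp1 did not pass, with 0.08 ± 0.10 (adjusted p = 0.556) in BRM014 and -0.06 ± 0.10 (adjusted p = 0.663) in DMSO, and its paralogue Rrp1b changed by -0.57 ± 0.11 (adjusted p = 0.00138) in BRM014 and -0.80 ± 0.11 (adjusted p = 0.000176) in DMSO. Rrs1, which brings the particle of 5S ribosomal RNA into the subunit, changed by -0.59 ± 0.12 (adjusted p = 0.00195) in BRM014 and -0.74 ± 0.12 (adjusted p = 0.0005) in DMSO. Nifk, a partner of Ki-67, had changes of -0.44 ± 0.10 in BRM014 and -0.56 ± 0.10 in DMSO, and the helicase Ddx18 of -0.53 ± 0.11 in BRM014 and -0.62 ± 0.11 in DMSO. Mrto4, Gnl2, Ebna1bp2 and Nle1, all assembly factors of the subunit, changed by -0.68 ± 0.11, -0.46 ± 0.10, -0.45 ± 0.12 and -0.64 ± 0.14 in BRM014 and of -0.49 ± 0.11, -0.66 ± 0.10, -0.74 ± 0.12 and -0.69 ± 0.14 in DMSO.

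The 3 multifunctional nucleolar proteins also fell under both treatments. Ncl (nucleolin), which binds the ribosomal RNA precursor, had the highest counts of all 54 genes, with 1681 and 2022 CPM in BRM014 and 1732 and 1864 CPM in DMSO at 30 h. At 6 h, Ncl had 3168 and 2998 CPM in BRM014 and 3768 and 3344 CPM in DMSO. All 30 h libraries of Ncl were below all 6 h libraries, and the change was -0.74 ± 0.11 (adjusted p = 0.000223) in BRM014 and -0.98 ± 0.11 (adjusted p = 4.03e-05) in DMSO. Ddx21, a helicase that acts in polymerase I transcription and in processing, had 320.4 and 381 CPM in BRM014 and 376 and 406 CPM in DMSO at 30 h. At 6 h, Ddx21 had 658 and 600.2 CPM in BRM014 and 820.2 and 706 CPM in DMSO. Its change with time was -0.84 ± 0.11 (adjusted p = 0.000118) in BRM014 and -0.96 ± 0.11 (adjusted p = 5.98e-05) in DMSO. Npm1 (nucleophosmin), a histone and ribosome chaperone, had 553 and 552 CPM in BRM014 and 570.2 and 527 CPM in DMSO at 30 h. At 6 h, Npm1 had 1008 and 849 CPM in BRM014 and 853 and 903 CPM in DMSO. For Npm1, the change with time was -0.75 ± 0.10 (adjusted p = 0.000129) in BRM014 and -0.68 ± 0.10 (adjusted p = 0.000298) in DMSO. Npm1 has processed pseudogenes, and how reads shared with them were assigned is not given in the sources used here.

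**Figure D3:**
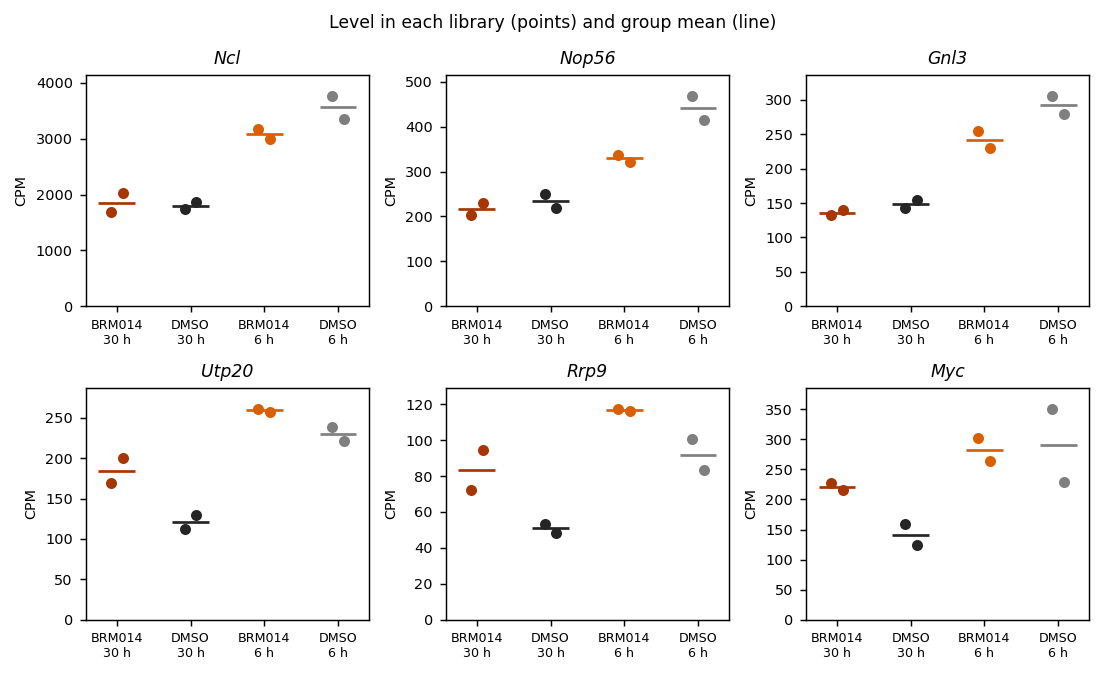
CPM in each library (points) and the group mean (line) for Ncl, Nop56, Gnl3, Utp20, Rrp9 and Myc in the 4 groups, with 2 libraries a group and each vertical axis starting at 0. Every 30 h point of Ncl and Gnl3 lies below every 6 h point, Nop56 was lower in BRM014 at 6 h, and Utp20, Rrp9 and Myc were higher in BRM014 than in DMSO at 30 h.

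At 30 h, 12 of the 54 genes were higher in BRM014 than in DMSO, 0 were lower and 42 did not pass. Over all genes tested, 16.8% were called higher and 19.1% lower, so the share called higher was near the background while lower calls were missing. No gene was lower at an unadjusted p under 0.05, with DESeq2 or with limma-voom. The median log2 fold change was 0.11, or 8.15% higher in BRM014, against -0.00 over all genes. That median was 0.06 without the second BRM014 library at 30 h and 0.18 without the first. Both BRM014 libraries lay above both DMSO libraries in 25 genes and below them in 3 (Nop58, Dkc1 and Gnl3), against 32.9% and 33.9% of all genes. By role, the 12 were 1 of 6 polymerase I genes, 6 of 15 processome genes, 1 of 5 later 40S genes and 4 of 17 of the 60S genes, with 0 of the 11 genes of the snoRNPs and the multifunctional proteins.

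The count at 30 h rested on 2 libraries: it was 4 without the second BRM014 library at 30 h and 7 without the second DMSO library at 30 h, and Utp20, Rrp9 and Noc3l passed in every alternative. In the second BRM014 library at 30 h, 46 of the 54 genes were higher than in the first, with a median difference of 10.7% over the 54. In the second DMSO library 39 were lower than in the first, with a median difference of -4.81%. These figures were not worked out over all genes. The summed epithelial markers given above, almost wholly Krt8, Krt18 and Cdh1, were also higher in BRM014 at 30 h, and their part in the result was not tested. Scaling on the ribosomal protein mRNAs gave 20 genes higher, with the median of all genes moved by 0.15 and that of the 54 still 0.12 above it.

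Polr1a, the largest subunit of RNA polymerase I, had 149 and 181 CPM in BRM014 and 110.4 and 133 CPM in DMSO at 30 h. At 6 h, Polr1a had 216 and 212 CPM in BRM014 and 211 and 199.6 CPM in DMSO. Both BRM014 libraries at 30 h were above both DMSO libraries and below all 6 h libraries, with an effect of 0.44 ± 0.12 (adjusted p = 0.00953), lost without the second BRM014 or the first DMSO library at 30 h. Polr1b, the next largest subunit, had 75.8 and 95.1 CPM in BRM014 and 79.6 and 73.2 CPM in DMSO at 30 h. At 6 h, Polr1b had 128 and 124 CPM in BRM014 and 131 and 128 CPM in DMSO. The 30 h groups of Polr1b overlapped, with an effect of 0.16 ± 0.11 (adjusted p = 0.271).

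Rrp9, a protein of the U3 snoRNP at the heart of the processome, had 72.5 and 94.5 CPM in BRM014 and 53.5 and 48.3 CPM in DMSO at 30 h. At 6 h, Rrp9 had 117 and 116 CPM in BRM014 and 100.4 and 83.6 CPM in DMSO. The BRM014 libraries at 30 h lay above the DMSO libraries at 30 h and overlapped those of DMSO at 6 h; the effect was 0.72 ± 0.13 (adjusted p = 0.000864), the largest of the 54 and 1.65-fold. Utp20, a large scaffold of the processome, had 169 and 200.2 CPM in BRM014 and 113 and 130.2 CPM in DMSO at 30 h. At 6 h, Utp20 had 261 and 257 CPM in BRM014 and 239 and 221 CPM in DMSO. The BRM014 libraries of Utp20 were above both DMSO libraries at 30 h and below all libraries at 6 h, with an effect of 0.60 ± 0.11 (adjusted p = 0.000742), 1.52-fold. These were the 2 genes of the 54 with a change of 1.5-fold or more.

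Heatr1 (UTP10 in yeast), another long scaffold, had 107 and 139.9 CPM in BRM014 and 85.3 and 94.6 CPM in DMSO at 30 h. At 6 h, Heatr1 had 173 and 173 CPM in BRM014 and 167 and 169 CPM in DMSO. The 30 h groups did not overlap, with an effect of 0.46 ± 0.12 (adjusted p = 0.00816), lost without the second BRM014 library at 30 h. Ddx10, an RNA helicase of the processome, had 67.4 and 71.0 CPM in BRM014 and 54.2 and 58.0 CPM in DMSO at 30 h. At 6 h, Ddx10 had 81.0 and 75.3 CPM in BRM014 and 84.1 and 76.2 CPM in DMSO. The 30 h effect on Ddx10 was 0.30 ± 0.10 (adjusted p = 0.0305). Of the 6 processome genes, Nop14 and Utp15 completed the set, at 0.33 ± 0.12 (adjusted p = 0.0401) and 0.32 ± 0.12 (adjusted p = 0.0471). For each of the 12 genes called at 30 h, both BRM014 libraries lay above both DMSO libraries. The 12 were called on these same libraries, so this lack of overlap is not separate support. The calls of Ddx10, Nop14 and Utp15 were each lost when any of several single libraries was left out.

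Rrp12, known in yeast from export of the subunits, had 119 and 152 CPM in BRM014 and 107 and 102 CPM in DMSO at 30 h. At 6 h, Rrp12 had 227 and 209 CPM in BRM014 and 206 and 201 CPM in DMSO. Its effect at 30 h was 0.38 ± 0.11 (adjusted p = 0.0194), lost without the second library of either treatment at 30 h. Noc3l, a 60S assembly factor, had 94.2 and 99.2 CPM in BRM014 and 74.2 and 75.0 CPM in DMSO at 30 h. At 6 h, Noc3l had 133 and 129.6 CPM in BRM014 and 124 and 112 CPM in DMSO. The BRM014 libraries of Noc3l were above both DMSO libraries at 30 h and below all 6 h libraries, with an effect of 0.38 ± 0.09 (adjusted p = 0.00659). Wdr12 had 82.8 and 84.6 CPM in BRM014 and 67.3 and 63.7 CPM in DMSO at 30 h. At 6 h, Wdr12 had 106 and 104 CPM in BRM014 and 99.3 and 86.8 CPM in DMSO. At 30 h its effect was 0.35 ± 0.10 (adjusted p = 0.0123), and its PeBoW partners Pes1 and Bop1 had 30 h effects of 0.17 ± 0.11 (adjusted p = 0.234) and 0.02 ± 0.10 (adjusted p = 0.904); the difference between these partners was not tested.

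Nop16, a 60S factor, had 87.9 and 97.8 CPM in BRM014 and 79.4 and 67.5 CPM in DMSO at 30 h. At 6 h, Nop16 had 137 and 137 CPM in BRM014 and 118 and 106 CPM in DMSO. The effect on Nop16 at 30 h was 0.34 ± 0.11 (adjusted p = 0.0248). Ddx56, a helicase of 60S assembly, had 114 and 113 CPM in BRM014 and 97.8 and 89.7 CPM in DMSO at 30 h. At 6 h, Ddx56 had 121 and 125 CPM in BRM014 and 115 and 113 CPM in DMSO. At 30 h the effect on Ddx56 was 0.27 ± 0.09 (adjusted p = 0.03). The calls of Wdr12 and Nop16 were lost without the second library of either treatment at 30 h, and that of Ddx56 without either BRM014 library or the second DMSO library at 30 h. All 12 genes were also called lower at 30 h than at 6 h in DMSO and 10 of them in BRM014, and in 10 both BRM014 libraries at 30 h were below both DMSO libraries at 6 h. The BRM014 effect at 30 h and the fall in DMSO share the 30 h DMSO libraries.

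**Figure D4:**
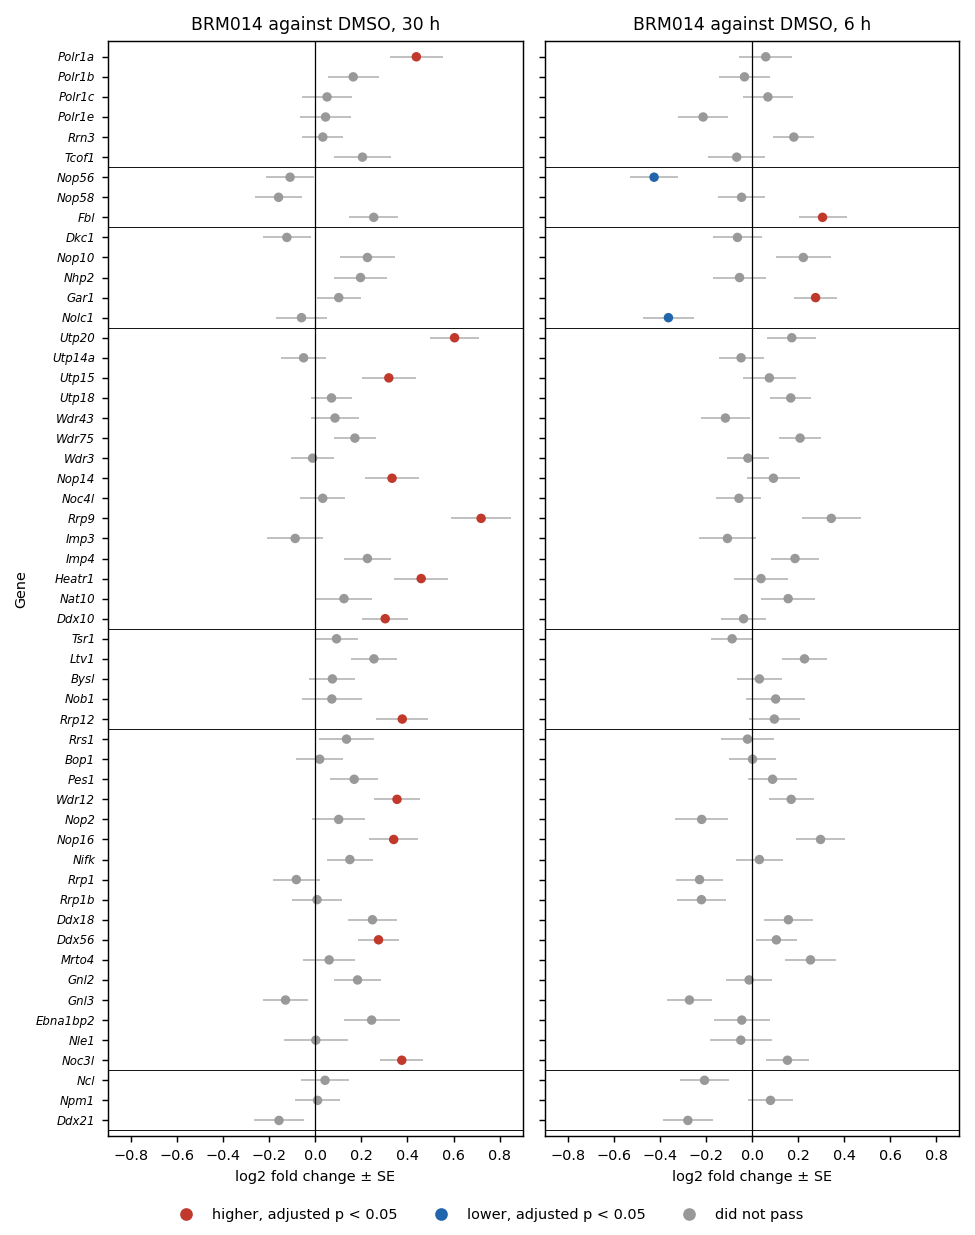
Effect of BRM014 against DMSO (log2 fold change ± SE) at 30 h, left, and 6 h, right, for the 54 genes, in the order of their roles; red points passed as higher, blue points as lower and grey points did not pass. At 30 h the 12 genes that passed are all to the right of 0, and at 6 h 2 passed on each side.

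At 6 h, 2 of the 54 genes were higher in BRM014 (Fbl and Gar1), 2 were lower (Nop56 and Nolc1) and 50 did not pass. Over all genes tested, 9.35% were called higher and 14.4% lower. The median was 0.03, or 2.25% higher, against -0.01 over all genes. Its sign depended on single libraries: it was -0.03 without the first BRM014 library at 6 h and -0.05 without the second DMSO library at 6 h. It was 0.07 without the second BRM014 library at 6 h, 0.11 without the first DMSO library at 6 h and 0.06 without the second DMSO library at 30 h. Both BRM014 libraries were above both DMSO libraries in 21 genes and below them in 10, against 30.8% and 34.4% of all genes. All 4 calls were in snoRNP genes, and 0 genes passed when either BRM014 library at 6 h was left out. Scaling by library totals gave 8 higher and 1 lower, and scaling on the ribosomal protein mRNAs 0 higher and 1 lower.

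Nop56 had 204 and 230.3 CPM in BRM014 and 250.4 and 218 CPM in DMSO at 30 h. At 6 h, Nop56 had 337 and 322 CPM in BRM014 and 469 and 416 CPM in DMSO. Both BRM014 libraries at 6 h lay below both DMSO libraries, with an effect of -0.42 ± 0.10 (adjusted p = 0.00956), whereas the 30 h groups overlapped, with -0.11 ± 0.10 (adjusted p = 0.446). Fbl, of the same particle, had 44.9 and 50.4 CPM in BRM014 and 41.1 and 39.0 CPM in DMSO at 30 h. At 6 h, Fbl had 70.4 and 69.1 CPM in BRM014 and 59.2 and 53.6 CPM in DMSO. Here the BRM014 libraries lay above the DMSO libraries at 6 h, with an effect of 0.31 ± 0.10 (adjusted p = 0.0487); the 30 h effect was 0.25 ± 0.11 (adjusted p = 0.079). The third core protein, Nop58, had an effect of -0.05 ± 0.10 (adjusted p = 0.797) at 6 h.

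Nolc1 had 389.8 and 466 CPM in BRM014 and 447 and 446 CPM in DMSO at 30 h. At 6 h, Nolc1 had 642 and 605 CPM in BRM014 and 874 and 729 CPM in DMSO. Both BRM014 libraries were below both DMSO libraries at 6 h, with an effect of -0.36 ± 0.11 (adjusted p = 0.0291), and at 30 h the effect was -0.06 ± 0.11 (adjusted p = 0.707). Gar1, a core protein of the box H/ACA particle, had 51.7 and 52.4 CPM in BRM014 and 49.4 and 47.6 CPM in DMSO at 30 h. At 6 h, Gar1 had 87.3 and 85.6 CPM in BRM014 and 73.1 and 69.7 CPM in DMSO. Its BRM014 libraries lay above the DMSO libraries at 6 h, with 0.28 ± 0.09 (adjusted p = 0.0463), and the effect at 30 h was 0.10 ± 0.09 (adjusted p = 0.433). The other H/ACA core genes did not pass, with -0.06 ± 0.10 for Dkc1, 0.22 ± 0.12 for Nop10 and -0.05 ± 0.11 for Nhp2.

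In the remaining roles no gene passed at 6 h, and the 2 genes of each role with the smallest p-values had these effects. Rrn3 was at 0.18 ± 0.09 (adjusted p = 0.165) and Polr1e at -0.21 ± 0.11 (adjusted p = 0.187). Rrp9 was at 0.34 ± 0.13 (adjusted p = 0.0709) and Wdr75 at 0.21 ± 0.09 (adjusted p = 0.115). Ltv1 was at 0.23 ± 0.10 (adjusted p = 0.115) and Tsr1 at -0.09 ± 0.09 (adjusted p = 0.553). Gnl3 was at -0.27 ± 0.10 (adjusted p = 0.0569) and Nop16 at 0.30 ± 0.11 (adjusted p = 0.0589). Ncl was at -0.21 ± 0.10 (adjusted p = 0.181) and Ddx21 at -0.28 ± 0.11 (adjusted p = 0.0854). Both BRM014 libraries of Polr1e, Gnl3, Ncl and Ddx21 lay below both DMSO libraries at 6 h, and those of Rrn3, Rrp9, Wdr75, Ltv1 and Nop16 above them. These genes were picked by their p-values on the same libraries, so the lack of overlap adds no support.

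No gene of the 54 was called at both times, whereas 9.7% of all genes were called lower and 6.04% higher at both. Across the 54 genes, the effects at 6 h and at 30 h, which share no libraries, had the same sign in 39. Pearson's r was 0.617 and Spearman's rho 0.624 across genes, which are not independent replicates. None of these 3 values was worked out over all genes, so the agreement cannot be called particular to the 54. The difference between the effects (30 h minus 6 h) passed in 0 of the 54 genes with edgeR, DESeq2 and limma-voom, against 3.89% of all genes called higher and 2.59% lower, and its median was 0.13 against 0.01 over all genes. Leaving out 1 library at a time gave medians of -0.00 (without the first DMSO library at 6 h) to 0.21 (without the second). It was 0.07 without the second BRM014 library at either time or the second DMSO library at 30 h. At an unadjusted p under 0.05, 4 genes were higher and 0 lower. The 3 with the smallest p were Utp20 (0.43 ± 0.15, adjusted p = 0.118), Heatr1 (0.42 ± 0.17, adjusted p = 0.165) and Ddx10 (0.34 ± 0.14, adjusted p = 0.192). Without the first BRM014 library at 30 h, Heatr1 passed, at 0.60 ± 0.14 with an adjusted p of 0.0356.

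The same comparisons were counted over 10 further lists of the pathway. Over all genes tested, 16.9% were called lower and 19.6% higher with time in BRM014, and 17.2% and 18% in DMSO. BRM014 effects were called higher in 16.8% and lower in 19.1% at 30 h, and in 9.35% and 14.4% at 6 h. At 30 h, 28.2% of the other small subunit factors, 8.70% of the other large ones and 18.2% of polymerase III genes were higher. Of 39 other small subunit factors, 23 fell with time in BRM014 and 26 in DMSO, and 11 were higher and 0 lower in BRM014 than in DMSO at 30 h. Utp4, a partner of Wdr43 and Utp15 in the processome, had 149 and 177 CPM in BRM014 and 112 and 117 CPM in DMSO at 30 h. At 6 h, Utp4 had 236 and 222 CPM in BRM014 and 196 and 185 CPM in DMSO. The 30 h effect on Utp4 was 0.51 ± 0.10 (adjusted p = 0.00162). Rrp7a had a 30 h effect of 0.53 ± 0.11 (adjusted p = 0.00154), and Dimt1, which methylates 18S ribosomal RNA, had 0.64 ± 0.15 (adjusted p = 0.00484) at 30 h and 0.54 ± 0.15 (adjusted p = 0.0162) at 6 h. The 6 h call of Dimt1 was lost without the first BRM014 library or either DMSO library at 6 h. Dimt1 was the only gene of this list called at 6 h.

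Of 46 other large subunit factors, 32 fell with time in BRM014 and 34 in DMSO; at 30 h, 4 were higher and 1 lower in BRM014, and at 6 h 1 was higher and 2 lower. Mdn1 (midasin), the giant ATPase that strips factors from the 60S precursor, had 54.4 and 71.5 CPM in BRM014 and 35.0 and 38.3 CPM in DMSO at 30 h. At 6 h, Mdn1 had 88.0 and 89.7 CPM in BRM014 and 82.0 and 92.7 CPM in DMSO. The 30 h effect on Mdn1 was 0.78 ± 0.13 (adjusted p = 0.000398). Urb2 had a 30 h effect of 0.42 ± 0.10 (adjusted p = 0.00621), lost without the second BRM014 library at 30 h. Eif6, which keeps the 60S subunit from joining the 40S, had 203 and 216 CPM in BRM014 and 271 and 225 CPM in DMSO at 30 h. At 6 h, Eif6 had 193 and 195 CPM in BRM014 and 310.4 and 272 CPM in DMSO. The effect on Eif6 at 6 h was -0.58 ± 0.11 (adjusted p = 0.0014). Ddx55 was lower in BRM014 at both times, at -0.38 ± 0.12 (adjusted p = 0.0203) at 30 h and -0.40 ± 0.11 (adjusted p = 0.022) at 6 h, calls that leaving out single libraries removed.

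Among 10 other genes of polymerase I, 3 fell in BRM014 and 4 in DMSO, 0 passed at 30 h and 1 was lower at 6 h. That gene was Taf1d, a subunit of the promoter selectivity factor, at -0.34 ± 0.11 (adjusted p = 0.0451), a call lost in several alternatives, while Ubtf, which shapes active ribosomal DNA, was at -0.11 ± 0.10 (adjusted p = 0.433). Of 11 snoRNP assembly genes, 6 fell in each treatment, 3 were higher in BRM014 at 30 h, Shq1 (0.42 ± 0.12) and Naf1 (0.38 ± 0.11) among them, and Ruvbl1 (0.30 ± 0.10) was higher at 6 h; the calls of these 3 named genes were lost without single libraries. Of 15 exosome genes, 8 fell in BRM014 and 5 in DMSO, 1 was higher and 1 lower at 30 h, and 2 were higher at 6 h. Of 22 genes of RNA polymerase III, 6 were lower and 2 higher with time in BRM014, and 10 lower and 2 higher in DMSO. Under BRM014, 4 of the 22 were higher and 1 lower at 30 h, and 2 were higher and 2 lower at 6 h. Polr3e had effects of 0.53 ± 0.11 (adjusted p = 0.00281) at 30 h and 0.45 ± 0.11 (adjusted p = 0.0103) at 6 h, and Polr3g of 0.53 ± 0.11 (adjusted p = 0.00249) at 30 h and 0.41 ± 0.11 (adjusted p = 0.0158) at 6 h. Both 6 h calls were lost without single libraries. The lower genes, named after their values were seen, were Polr3gl at both times (-0.83 ± 0.21, adjusted p = 0.00824 at 30 h and -0.85 ± 0.24, adjusted p = 0.0193 at 6 h) and Gtf3c1 at 6 h (-0.34 ± 0.09, adjusted p = 0.0163).

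The 78 ribosomal protein genes gave these counts: 19 were lower and 0 higher with time in BRM014, 19 lower and 1 higher in DMSO, 1 higher and 3 lower in BRM014 at 30 h, and 0 passed at 6 h. Rpl39 was lower at 30 h, with an effect of -0.40 ± 0.13 (adjusted p = 0.0294), a call lost without the second BRM014 or the first DMSO library at 30 h. These genes have many processed pseudogenes, so their counts are uncertain. Of 17 genes of nucleotide synthesis, 11 were lower and 1 higher with time in BRM014 and 9 lower and 1 higher in DMSO. At 30 h, 3 were higher and 4 lower in BRM014. Paics and Gmps, of purine synthesis, were lower at both times, with -0.48 ± 0.09 and -0.44 ± 0.09 at 30 h and -0.29 ± 0.09 and -0.35 ± 0.09 at 6 h, the 6 h calls being lost without single libraries. Impdh1 was higher at 30 h at 0.56 ± 0.11 (adjusted p = 0.00148).

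**Figure D5:**
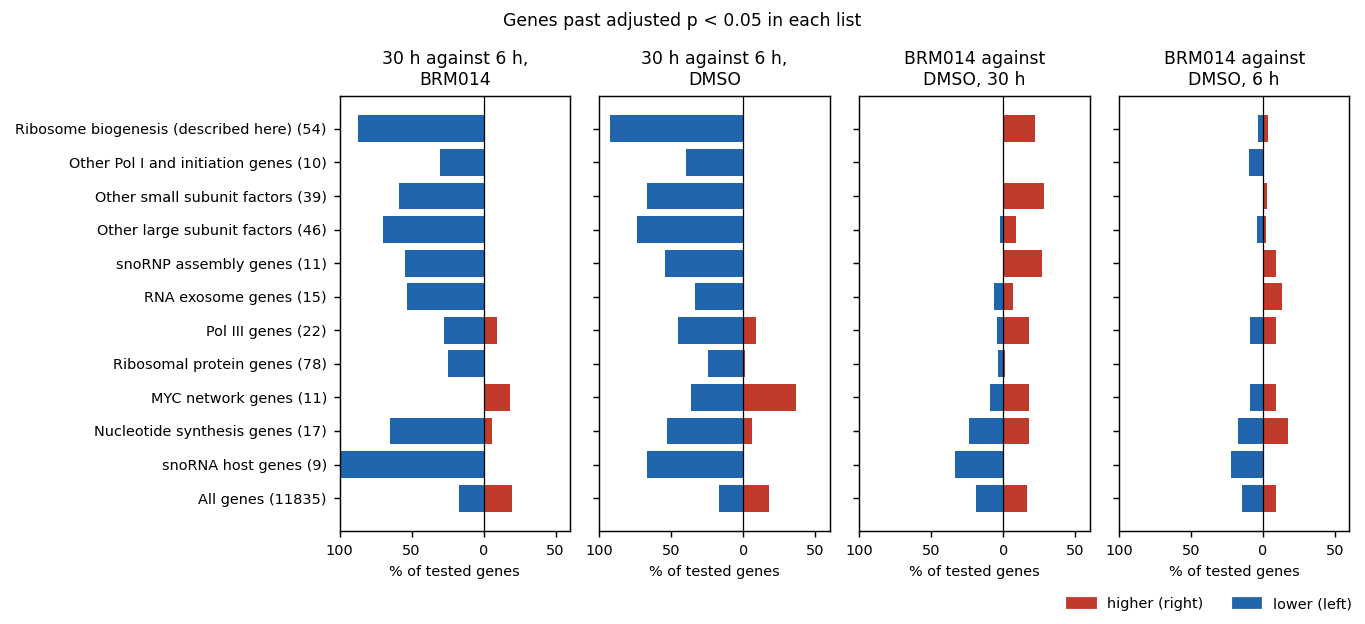
Share of tested genes called higher (red, to the right) or lower (blue, to the left) in each list and over all genes, with panels for time in BRM014, time in DMSO, BRM014 at 30 h and BRM014 at 6 h; the counts of tested genes stand in brackets. The lists of ribosome assembly factors have mostly blue bars in the panels for time and mostly red bars at 30 h, and the bars at 6 h are short. At 30 h the red bar is 22.2% for the 54 genes, against 16.8% for all genes. It is 28.2% for the other small subunit factors and 8.70% for the other large ones.

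Myc, the transcription factor known to activate this gene set, had 228 and 215 CPM in BRM014 and 159 and 124 CPM in DMSO at 30 h. At 6 h, Myc had 301 and 264 CPM in BRM014 and 351 and 229.8 CPM in DMSO. Both BRM014 libraries at 30 h lay above both DMSO libraries at 30 h, with an effect of 0.65 ± 0.17 (adjusted p = 0.00843), lost without the first BRM014 or the second DMSO library at 30 h. At 6 h the groups overlapped, with -0.04 ± 0.16 (adjusted p = 0.902). With time, the change was -0.35 ± 0.17 (adjusted p = 0.111) in BRM014 and -1.04 ± 0.17 (adjusted p = 0.000553) in DMSO, and the difference of the BRM014 effects was 0.68 ± 0.23 (adjusted p = 0.108). Max, the partner of MYC, was higher in BRM014 at 30 h, with an effect of 0.51 ± 0.11 (adjusted p = 0.00285). The 6 h effect of Max was 0.33 ± 0.11 (adjusted p = 0.0409), a call lost when any 1 of the 4 libraries at 6 h was left out. Mxd1, a repressor that competes for MAX, was lower in BRM014 at 6 h, with 5.03 and 4.18 CPM against 11.9 and 12.7 CPM in DMSO (-1.42 ± 0.18, adjusted p = 6.23e-05). Of the 11 genes of the MYC network tested, 2 were higher and 0 lower with time in BRM014 and 4 higher and 4 lower in DMSO. In BRM014 against DMSO, 2 of the 11 were higher and 1, not named here, was lower at 30 h. At 6 h, 1 was higher and 1 lower. The median BRM014 effect of the 11 was -0.05 at 30 h and 0.02 at 6 h, so the network did not move in 1 direction.

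The E-box bound by MYC and MAX is shown in a pair of promoters next to a pair without it. The letters CACGTG, a palindrome searched once for both strands, were looked for in RefSeq promoter windows of GRCm38.p6 (250 bases before to 50 after each start); 47 of the 54 genes had a window. The motif was in 10 of the 47, or 21.3%, against 11.8% of the 9420 tested genes with a window and 8.09% of all 27025 genes in the table. In Utp20, Wdr43, Tsr1, Ltv1, Pes1 and Nle1, which are among the 10, it did not lie wholly in the 250 bases before the start. The 250 bases before the start are printed for Nop2 (chr6:125131633-125131882, plus strand), Rrn3 (chr16:13780449-13780698, plus strand), Ncl (chr1:86359456-86359705, minus strand) and Rrp9 (chr9:106477059-106477308, plus strand), each 5′ to 3′ with the motif in capitals.
Nop2: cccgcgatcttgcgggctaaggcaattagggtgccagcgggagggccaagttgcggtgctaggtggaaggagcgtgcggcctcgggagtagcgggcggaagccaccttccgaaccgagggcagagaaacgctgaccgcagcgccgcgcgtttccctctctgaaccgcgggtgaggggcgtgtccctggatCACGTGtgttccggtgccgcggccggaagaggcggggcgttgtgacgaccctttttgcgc
Rrn3: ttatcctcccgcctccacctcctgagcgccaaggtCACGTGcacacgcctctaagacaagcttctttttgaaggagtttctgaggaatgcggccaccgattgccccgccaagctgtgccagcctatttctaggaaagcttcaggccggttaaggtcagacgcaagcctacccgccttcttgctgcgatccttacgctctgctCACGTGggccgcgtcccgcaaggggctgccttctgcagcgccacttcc
Ncl: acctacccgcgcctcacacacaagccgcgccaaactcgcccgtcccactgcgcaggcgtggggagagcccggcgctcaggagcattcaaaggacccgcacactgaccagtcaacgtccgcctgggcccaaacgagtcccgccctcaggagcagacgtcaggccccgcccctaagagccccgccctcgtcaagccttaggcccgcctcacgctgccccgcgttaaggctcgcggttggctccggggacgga
Rrp9: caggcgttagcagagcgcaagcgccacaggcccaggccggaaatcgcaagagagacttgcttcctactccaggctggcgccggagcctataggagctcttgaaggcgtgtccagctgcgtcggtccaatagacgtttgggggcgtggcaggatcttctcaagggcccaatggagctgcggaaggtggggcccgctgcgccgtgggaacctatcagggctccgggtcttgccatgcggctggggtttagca
In Nop2 the motif began 60 bases before the start, and in Rrn3 there were 2 motifs, beginning 215 and 48 bases before it. Ncl and Rrp9 had none in this window. Nop2 and Ncl, with and without the motif, had changes with time in DMSO of -0.92 ± 0.11 and -0.98 ± 0.11, and Rrn3 of -0.30 ± 0.09. The median change with time in DMSO was -0.58 for the 10 genes with the motif and -0.61 for the 37 without. BRM014 effects had medians of 0.10 with and 0.10 without it at 30 h, and 0.13 with and 0.03 without it at 6 h. A match of letters is not evidence of binding.

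Introns of 7 of the 54 genes hold annotated snoRNA genes, 21 in all (Nop56, Nop58, Dkc1, Wdr43, Tsr1, Gnl3 and Ncl), a grouping looked up after the values were seen and given without a test. The median change with time in DMSO was -0.94 for the 7 hosts and -0.59 for the other 47. At 30 h the median BRM014 effect was -0.11 for the hosts and 0.16 for the others, and at 6 h it was -0.12 for the hosts and 0.07 for the others. Of 9 noncoding snoRNA host genes tested, 9 fell with time in BRM014 and 6 in DMSO, 3 were lower in BRM014 at 30 h and 2 at 6 h, and 0 were higher in any of these comparisons. Snhg1, host of several box C/D snoRNAs, had 117 and 119.9 CPM in BRM014 and 161 and 138 CPM in DMSO at 30 h. At 6 h, Snhg1 had 229 and 205 CPM in BRM014 and 254 and 297 CPM in DMSO. The BRM014 effect on Snhg1 was -0.34 ± 0.11 (adjusted p = 0.0291) at 30 h and -0.35 ± 0.11 (adjusted p = 0.0339) at 6 h; leaving out either BRM014 library of that time removed each call. Snhg3 had 20.4 and 20.1 CPM in BRM014 and 39.6 and 39.7 CPM in DMSO at 30 h. At 6 h, Snhg3 had 52.6 and 42.6 CPM in BRM014 and 52.0 and 57.9 CPM in DMSO. Its BRM014 effect was -0.97 ± 0.12 (adjusted p = 4.88e-05) at 30 h and -0.21 ± 0.12 (adjusted p = 0.234) at 6 h.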

How the data were processed

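Total RNA was sequenced as single 50-base reads from stranded libraries, per the labels' protocols. The authors deposited raw counts per gene symbol, and Subread, featureCounts, SAMtools 0.1.19 and mm9 are named in the submitters' processing notes; the strand setting and annotation are not given in the sources used here. Genes were filtered with filterByExpr, leaving 11835 of 21240, and scaled by TMM. The 4 groups were fitted together with edgeR 4.0.16 in R 4.3.3 (glmQLFit and glmQLFTest, two-sided, 4 residual degrees of freedom), with Benjamini-Hochberg adjustment over all genes tested, and SE was the log2 fold change divided by the root of F. The edgeR fit also borrowed the spread of other genes, so its p-values rest on more than 4 degrees of freedom. DESeq2 1.42.0 and limma-voom (limma 3.58.1) were alternatives. The replicates are labelled biological, but nothing says that they were separate cultures. The p-values thus measure the spread between these libraries, with that of other genes borrowed. In simulated counts, 6% of 1.25-fold, 50% of 1.5-fold and 86% of 2-fold changes were recovered for BRM014 against DMSO at 6 h over 11835 genes. A gene that did not pass at 6 h can thus still have changed by 1.25-fold or 1.5-fold, and some 2-fold changes were missed too. These shares were not worked out for the other comparisons or for the listed genes alone, so they set no limit there.

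The genes and lists were chosen with earlier results of these data known. Every gene of the list could be named; values of all libraries were given for the 2 genes of each role with the smallest p at 6 h and at 30 h, for the 3 with the smallest p in the test of the difference and the 3 in that of time in DMSO; and, of the further lists, the 2 genes with the smallest p at each time and Myc were the candidates for naming. Other genes given with values, such as Nop2 and Npm1, were added after their values were seen. Promoter sequences are from RefSeq (GRCm38.p6), and snoRNA hosts and exon overlaps from GENCODE M21; no coordinate of either was set against the mm9 counts.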

Additional observations from a re-analysis of the deposited data

Results flagged for a closer look

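The test of the difference between the BRM014 effects at the 2 times, 30 h minus 6 h, picked out 0 of the 54 genes and 4 genes of the further lists, with edgeR's quasi-likelihood test and Benjamini-Hochberg adjustment. Mxd1, the MYC antagonist, had 18.2 and 15.7 CPM in BRM014 and 14.1 and 14.6 CPM in DMSO at 30 h, and 5.03 and 4.18 CPM in BRM014 and 11.9 and 12.7 CPM in DMSO at 6 h, and its effects differed by 1.66 ± 0.24 (adjusted p = 0.00102). Mdn1, the 60S ATPase, had 54.4 and 71.5 CPM in BRM014 and 35.0 and 38.3 CPM in DMSO at 30 h, and 88.0 and 89.7 CPM in BRM014 and 82.0 and 92.7 CPM in DMSO at 6 h, a difference of 0.76 ± 0.18 (adjusted p = 0.0232). For Exosc8, a subunit of the RNA exosome, the levels were 56.0 and 55.3 CPM in BRM014 and 78.0 and 65.8 CPM in DMSO at 30 h, and 106 and 109 CPM in BRM014 and 93.6 and 84.6 CPM in DMSO at 6 h, a difference of -0.64 ± 0.15 (adjusted p = 0.0208). Snhg3, a snoRNA host, had 20.4 and 20.1 CPM in BRM014 and 39.6 and 39.7 CPM in DMSO at 30 h, and 52.6 and 42.6 CPM in BRM014 and 52.0 and 57.9 CPM in DMSO at 6 h, a difference of -0.76 ± 0.17 (adjusted p = 0.0179). The call of Mxd1 held in every alternative, and those of Mdn1, Exosc8 and Snhg3 were lost when single libraries were left out and under ribosomal protein scaling.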

How the results depend on the processing

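Scaling (RLE, library totals, ribosomal proteins), filters, DESeq2, limma-voom, fits of the compared libraries alone, a replicate block and leaving out each of the 8 libraries were tried, and no call changed sign. Calls that held in all alternatives numbered 38 of 50 for time in DMSO, 17 of 47 for time in BRM014, 3 of 12 at 30 h and 0 of 4 at 6 h. Ribosomal protein scaling gave 20 genes higher at 30 h, 17 lower with time in BRM014, and 0 higher and 1 lower at 6 h; it moved the median of all genes by 0.15 at 30 h, 0.22 with time in BRM014 and 0.14 with time in DMSO. Library totals gave 8 higher and 1 lower at 6 h, with the median of all genes moved to 0.07. Fitting the compared libraries alone gave 5 higher at 6 h. Leaving out 1 library at a time gave 0 to 4 higher and 0 to 3 lower at 6 h, 4 to 12 higher at 30 h, 41 to 51 lower with time in DMSO, 35 to 47 lower with time in BRM014, and 0 to 1 higher for the difference. The cause of these shifts was not tested. With 1 library left in a group, that library was assumed to vary like the others. Deviations of same-numbered libraries correlated between groups at r of 0.011 to 0.20, over 0.1 in 5 of 6 pairs of groups. The labels do not say what the numbers share, so they were not used as pairs. With the replicate block, 4 genes were higher and 3 lower at 6 h and 14 higher at 30 h, and 50 were lower with time in DMSO and 47 in BRM014. Over all genes, the block called the difference of the effects higher in 726 and lower in 511, against 460 and 306 without it. Medians of the 54 genes without 1 library ran from -0.05 to 0.11 at 6 h, 0.06 to 0.18 at 30 h, -0.00 to 0.21 for the difference, -0.71 to -0.53 with time in DMSO and -0.61 to -0.43 with time in BRM014.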

Other observations

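Of the snoRNA genes inside introns of the 54 genes, some had rows of their own, with few counts. Snora75, in an intron of Ncl, had 5 and 14 counts in BRM014 at 30 h, 3 and 1 in DMSO at 30 h, 20 and 29 in BRM014 at 6 h and 19 and 18 in DMSO at 6 h. Snord57, in an intron of Nop56, had 5 and 15 counts in BRM014 at 30 h, 3 and 6 in DMSO at 30 h, 24 and 25 in BRM014 at 6 h and 29 and 27 in DMSO at 6 h. All 30 h libraries lay below all 6 h libraries for these snoRNA rows, which were chosen after their values were seen. Of the other 3 rows with enough counts to be tested, Snord19 and Snord91a also had every 30 h library below every 6 h library in CPM. The share of all genes with this pattern was not worked out. Further rows had too few counts to be tested. Among them, Snord53, in Wdr43, had 0 and 5 counts in BRM014 and 5 and 5 in DMSO at 30 h. At 6 h it had 1 and 5 in BRM014 and 7 and 5 in DMSO, so its times overlapped. Snord19 had 0.321 to 0.435 CPM at 30 h and 0.667 to 1.36 CPM at 6 h. Snord91a had 0.0438 to 0.293 CPM at 30 h and 0.364 to 0.564 CPM at 6 h. Snord69, in an intron of Gnl3, had 12 and 10 counts in BRM014 at 30 h, 19 and 15 in DMSO at 30 h, 38 and 29 in BRM014 at 6 h and 17 and 37 in DMSO at 6 h, so the times overlapped in DMSO. Snord19, also in Gnl3, had 6 and 13 counts in BRM014 at 30 h, 8 and 8 in DMSO at 30 h, 13 and 32 in BRM014 at 6 h and 22 and 26 in DMSO at 6 h. Snord91a, in Tsr1, had 2 and 9 counts in BRM014 at 30 h, 1 and 1 in DMSO at 30 h, 11 and 9 in BRM014 at 6 h and 11 and 7 in DMSO at 6 h. Reads of a snoRNA and of its host's intron cannot be told apart in these counts.

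Between the 2 libraries of a group, most of the 54 genes differed in the same direction. The same was not counted over all genes, so whether this was particular to the 54 was not tested. In the second library, the level was higher than in the first in 46 genes for BRM014 at 30 h, and lower in 39 for DMSO at 30 h, in 49 for BRM014 at 6 h and in 50 for DMSO at 6 h. The median difference, second against first, was 10.7%, -4.81%, -5.13% and -10.6% in that order of groups.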
